A study of Homo sapiens with 18 samples.

Results

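The 9 genes described here belong to the p53 pathway and were taken by their symbols from the 26485 gene rows of the count files. They are MDM2 and MDM4, which restrain p53, the cell death genes BBC3, PMAIP1, BAX and FAS, and GDF15, SESN1 and ZMAT3, targets with other roles. All 9 had a row. Of these, MDM2, MDM4, BBC3, PMAIP1, BAX and SESN1 passed the filter on low counts and were tested among 12215 genes. FAS, GDF15 and ZMAT3 did not pass, with 29, 52 and 24 counts over all 18 libraries, and are given below as raw counts.

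p53 is a transcription factor that MDM2, a ubiquitin ligase, and its relative MDM4 keep at a low level in unstressed cells. When DNA is damaged or a cell is otherwise stressed, p53 builds up and binds response elements near its target genes, MDM2 among them, which closes a feedback loop. The products of its targets can stop division, help repair or start apoptosis, and human embryonic stem cells are known to enter apoptosis readily after DNA damage.

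The human embryonic stem cell (hESC) line WIBR3 was studied in a form heterozygous for LIS1 (LIS1+/-) and in the wild-type form (LIS1+/+), and each genotype was sampled as hESC and as cortical organoids at Day 5 and at Day 12. Each of these 6 groups has 3 libraries. LIS1 is the common name of PAFAH1B1, a regulator of dynein-driven transport, and people with a single working copy have a smooth cortex. The number of LIS1+/- clones and the alteration they carry are not given in the sources used here, which means that an effect of the genotype and one of the clone cannot be told apart. The stages were sequenced in different pools according to the file names, so stage and pool cannot be told apart either. Whether the 3 libraries of a group came from separate cultures is not in the labels, and p-values therefore cover only the spread among them.

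Bulk MARS-seq, the method used, reads short tags from the 3' end of each transcript, and a library held 1425098 to 4501489 counts over genes. Levels are in CPM (counts scaled to a common library size) and are compared between groups for 1 gene at a time. PAFAH1B1 itself stood at 62.7%, 66.7% and 58.2% of the LIS1+/+ level in LIS1+/- hESC, Day 5 and Day 12 samples, with edgeR adjusted p = 0.173, 0.148 and 0.0372. Replicate 2 of Day 5 LIS1+/-, replicate 3 of hESC LIS1+/+ and replicate 2 of Day 12 LIS1+/+ stood apart from the rest of their stage, with relatively fewer counts for GC-rich genes and slopes of -0.0306 to -0.0184 log2 units for each percent of GC, where the other 15 had -0.00117 to 0.0146. PMAIP1, with 26.6% GC in the last 500 bases of its transcript, is the member with the lowest GC content there. Summed over 9 genes, neural progenitor markers stood at 1226 to 1393 CPM in LIS1+/- and 1124 to 1192 CPM in LIS1+/+ hESC, and at 1753 CPM or more in each organoid library, and SOX1 and EMX2 had no count in LIS1+/+ hESC. SOX2 and NES made up most of the hESC sums, with means of 473 and 721 CPM in LIS1+/- and 507 and 577 CPM in LIS1+/+. PAX6, SOX1, FABP7 and EMX2 had means of at most 1.78 CPM in hESC. At Day 12 SOX2 and NES had 478 and 761 CPM in LIS1+/- and 430 and 498 CPM in LIS1+/+. HES5 had 3.13 and 1.24 CPM in LIS1+/- and LIS1+/+ hESC and at least 731 CPM in each organoid group.

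The promoter sequences below show where a p53 response element can be read in these genes and where it cannot. Promoters of 300 bases (250 before and 50 after each transcription start) were taken from RefSeq on GRCh38.p14, and 17 of them belong to the 9 genes. Both strands were searched for the consensus p53 response element, which is a pair of 10-base half-sites. Up to 2 mismatches over both half-sites together and a spacer of up to 13 bases were allowed. The fixed C and the fixed G inside each half-site had to be present. Of 35116 promoters of this length, 2.93% held such a match. Among the 9 genes MDM2 and FAS had one, in 3 of the 17 promoters, and no match says only that these letters are not in this window. The capitals mark the match in MDM2 at chr12:68808903-68808962 and in FAS at chr10:88991289-88991348, both on the plus strand. They begin 94 and 122 bases before an alternative transcription start that lies inside the gene. MDM2 itself begins at 68808176 and FAS at 88990582, and the promoters of these genes that lie nearer those positions held no match.
MDM2: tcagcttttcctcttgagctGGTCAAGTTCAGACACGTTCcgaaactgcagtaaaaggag
FAS: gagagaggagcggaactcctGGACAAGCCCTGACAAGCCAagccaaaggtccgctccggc

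PMAIP1 is shown because its level moved most between stages, and its 250 bases before the start held no p53 match. The capitals mark the letters ACGTCA, the reverse complement of the cyclic AMP response element half-site TGACGT, 56 bases before the start at chr18:59899746-59899995 on the plus strand. Of all promoters of 300 bases, 7.98% held TGACGT or ACGTCA on 1 of the strands.
PMAIP1: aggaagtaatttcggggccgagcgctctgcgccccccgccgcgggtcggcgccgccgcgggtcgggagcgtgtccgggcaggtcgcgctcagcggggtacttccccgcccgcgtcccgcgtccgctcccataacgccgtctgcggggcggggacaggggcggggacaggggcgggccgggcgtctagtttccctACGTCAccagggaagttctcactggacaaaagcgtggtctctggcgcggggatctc

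Between the genotypes, none of the 6 tested members passed the threshold (adjusted p under 0.05 over all tested genes) at any stage in edgeR or in DESeq2. At an unadjusted p under 0.05 edgeR gave 2 members in hESC (MDM2, lower in LIS1+/-, and BBC3, higher), 1 at Day 5 (PMAIP1, lower) and 0 at Day 12. Over all genes 0.491%, 1.95% and 1.4% were called at adjusted p under 0.05 at hESC, Day 5 and Day 12. The share of all genes at the unadjusted threshold was not counted, so the unadjusted member counts have no share to be set beside. The LIS1+/- and LIS1+/+ libraries did not overlap for 3 of the 6 tested members in hESC (MDM2, BBC3 and SESN1), 1 at Day 5 (SESN1) and 1 at Day 12 (BAX), where 18.3%, 17.5% and 16.9% of all tested genes did not overlap. Among the members below the filter, GDF15 in hESC and FAS at Day 12 did not overlap either. The median log2 fold change of the 6 was -0.05, 0.07 and 0.40 at the 3 stages, beside 0.03, 0.01 and -0.01 for all tested genes.

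Between the stages more members moved. From hESC to Day 5, 3 of 6 were called in LIS1+/- (MDM4 and SESN1 higher, PMAIP1 lower) and 3 of 6 in LIS1+/+ (MDM4 higher, MDM2 and PMAIP1 lower), where 43.7% and 44.6% of all tested genes were called. Between Day 5 and Day 12, 2 were called in LIS1+/- (PMAIP1 higher, BAX lower) and 1 in LIS1+/+ (BAX lower), where the shares over all genes were 16.5% and 24.5%. Set beside these shares, the counts over 6 genes single out nothing about the p53 pathway, and the account below goes gene by gene. No member passed in a test of the difference of the genotype effect between stages. There edgeR called 0.573% (Day 5 minus hESC), 1.06% (Day 12 minus Day 5) and 0.377% (Day 12 minus hESC) of all tested genes at adjusted p under 0.05. At an unadjusted p under 0.05 there were 1 (SESN1), 1 (PMAIP1) and 2 members (MDM2 and BBC3). The share of all genes at that unadjusted threshold was not counted. DESeq2 called 0 members in these differences as well.

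**Figure D1:**
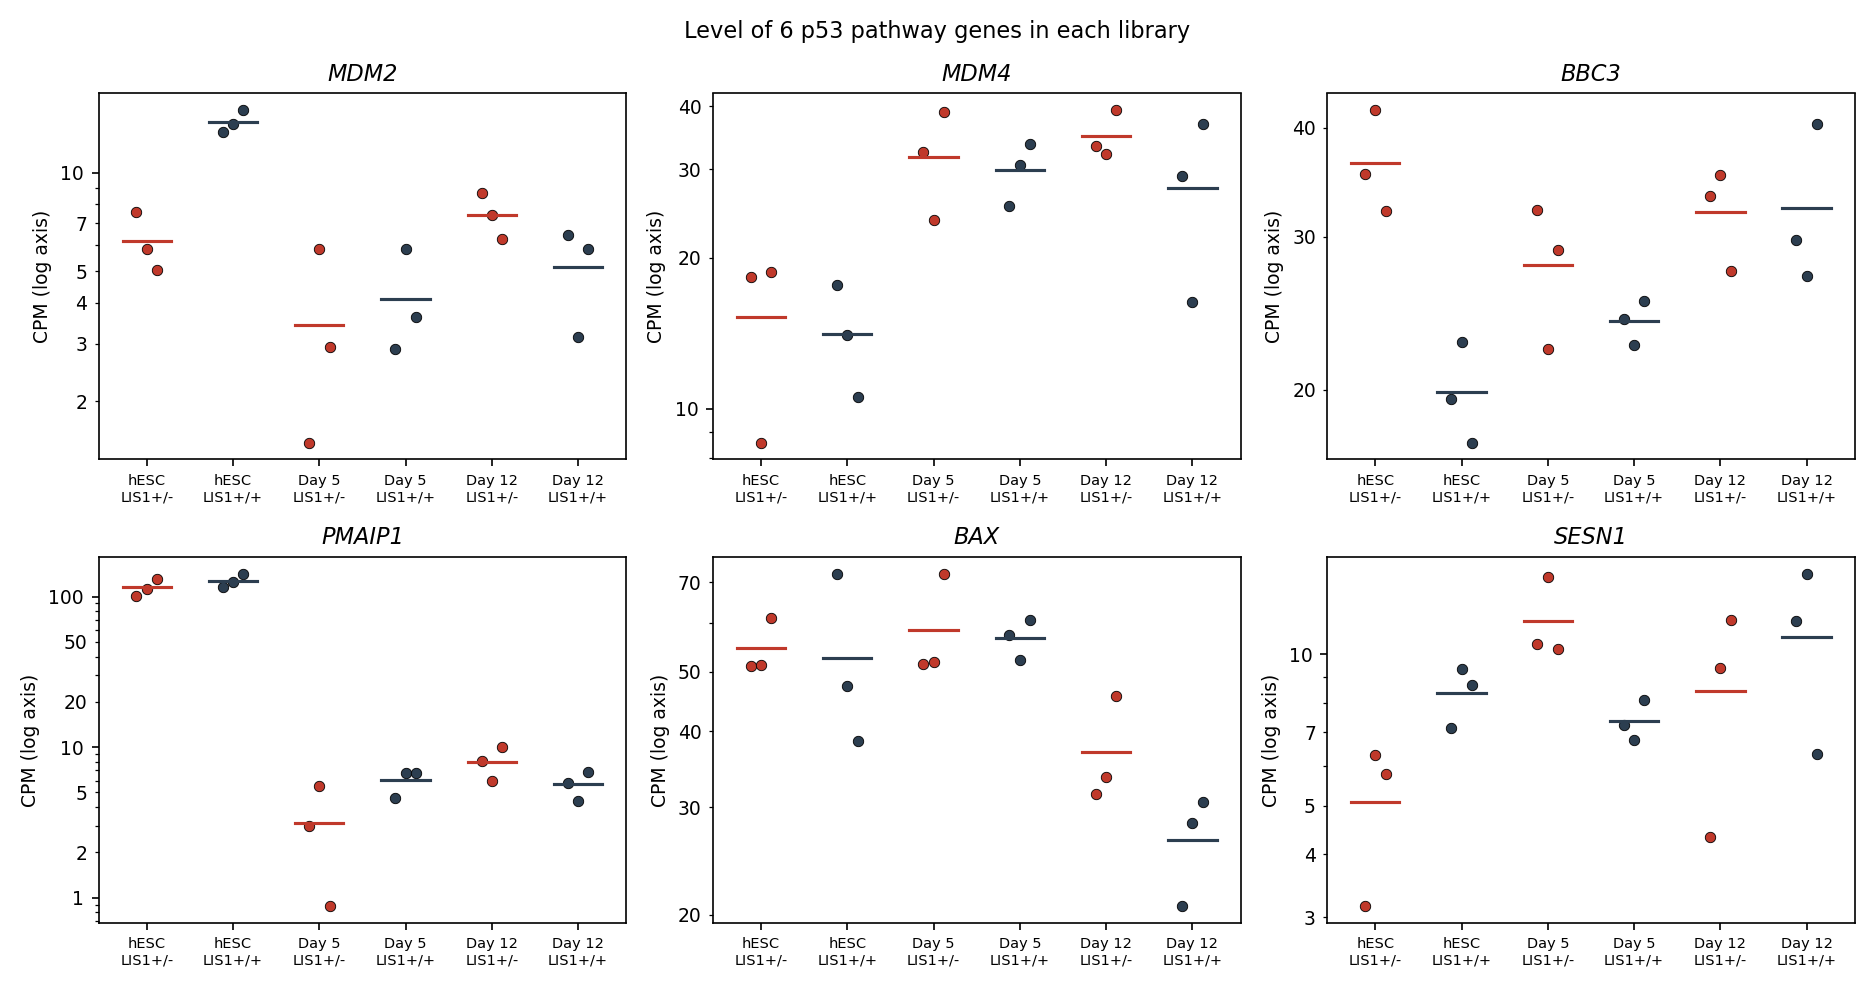
Level in CPM (log axis, scaled per gene) of the 6 tested genes in each of the 18 libraries; points are libraries, bars are group means, LIS1+/- is red and LIS1+/+ dark blue. PMAIP1 lies between 102 and 142 CPM in hESC and between 0.878 and 9.97 CPM in the organoid libraries of both genotypes.

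MDM2 lies on chromosome 12 from 68808176 to 68850686 on the plus strand (GRCh38). In hESC it had 7.58, 5.86 and 5.05 CPM in the 3 libraries of LIS1+/-, against 13.3, 14.0 and 15.5 CPM in those of LIS1+/+. At Day 5 it had 1.495, 5.85 and 2.93 CPM in LIS1+/-, against 2.89, 5.86 and 3.61 CPM in LIS1+/+. At Day 12 it had 8.66, 7.40 and 6.27 CPM in LIS1+/-, against 6.46, 3.15 and 5.84 CPM in LIS1+/+. All 3 LIS1+/- hESC libraries lay below all 3 LIS1+/+ ones, while the genotypes overlapped at both organoid stages, and the highest Day 5 LIS1+/- value belonged to replicate 2, one of the 3 libraries with the GC trend.

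The fitted MDM2 level in LIS1+/- hESC was 0.426 of that in LIS1+/+ (95% confidence interval 0.233 to 0.780), a log2 fold change of -1.23 ± 0.42 (SE, n = 3 against 3). This did not pass over all genes in edgeR (unadjusted p = 0.00744, adjusted p = 0.235). The log2 fold change was -0.27 ± 0.45 at Day 5 and 0.50 ± 0.45 at Day 12, so the sign in the Day 12 organoids was opposite to that in hESC. The difference between those effects, Day 12 minus hESC, was 1.73 ± 0.62 and did not pass (unadjusted p = 0.00979, edgeR adjusted p = 0.34). The hESC difference came with lower summed pluripotency markers in LIS1+/- (2866 to 3098 CPM over 6 genes) than in LIS1+/+ (3680 to 4033 CPM), and with higher summed mesenchyme markers, at 519 to 600 CPM in LIS1+/- and 451 to 486 CPM in LIS1+/+. Of the mesenchyme list, COL1A1 went the other way, with means of 100 CPM in LIS1+/- and 149 CPM in LIS1+/+. LUM was at 0 in both groups and DCN at 0 in LIS1+/-, while COL1A2, COL3A1, PDGFRB and TWIST1 were higher in LIS1+/-. The part of these markers in the hESC difference of MDM2, or in the hESC values of BBC3 and SESN1, was not tested.

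From hESC to Day 5 MDM2 fell in LIS1+/+, with a log2 fold change of -1.78 ± 0.41 (edgeR adjusted p = 0.000966) and no overlap between the stages. In LIS1+/- the same step was -0.82 ± 0.46 (adjusted p = 0.157), and the difference of the steps, which is the Day 5 minus hESC difference of the genotype effect, was 0.96 ± 0.62 (adjusted p = 0.565). Later, from Day 5 to Day 12, MDM2 gave 1.09 ± 0.44 in LIS1+/- (adjusted p = 0.0927), with every Day 12 library above every Day 5 library, and 0.32 ± 0.46 in LIS1+/+ (adjusted p = 0.64). Without Day 5 LIS1+/- replicate 2, edgeR called both LIS1+/- steps, at -1.39 (adjusted p = 0.034) and 1.67 (adjusted p = 0.0241), and without replicate 1 of the same group the steps were -0.48 (adjusted p = 0.446) and 0.76 (adjusted p = 0.309). These values rest on 4 to 28 counts per library. The 3' part of MDM2 overlaps, on the opposite strand, the gene of carboxypeptidase M, which had at most 3 counts in a library.

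MDM4, which binds p53 and blocks its activity without being a strong ubiquitin ligase itself, lies on chromosome 1 from 204516379 to 204558120 on the plus strand. hESC had 18.3, 8.57 and 18.8 CPM in LIS1+/-, against 17.6, 14.0 and 10.6 CPM in LIS1+/+. Day 5 organoids had 32.5, 23.8 and 38.9 CPM in LIS1+/-, against 25.3, 30.6 and 33.6 CPM in LIS1+/+. Day 12 organoids had 33.4, 32.2 and 39.3 CPM in LIS1+/-, against 29.1, 16.4 and 37.0 CPM in LIS1+/+. The genotypes overlapped at every stage, and every Day 5 library lay above every hESC library of its genotype.

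MDM4 rose from hESC to Day 5 in both genotypes, by 1.07 ± 0.30 on the log2 scale in LIS1+/- (edgeR adjusted p = 0.00558) and by 1.07 ± 0.31 in LIS1+/+ (adjusted p = 0.0063), about 2.10-fold in each. Without hESC LIS1+/- replicate 2, the library with 8.57 CPM, the LIS1+/- step was 0.78 (adjusted p = 0.056). Over the second step, from Day 5 to Day 12, the log2 fold change was 0.14 ± 0.28 in LIS1+/- and -0.11 ± 0.29 in LIS1+/+, with adjusted p = 0.793 and 0.817. The genotype effects were 0.093, 0.092 and 0.34 at hESC, Day 5 and Day 12, and their 95% intervals allow a fold of 0.660 to 1.72, 0.722 to 1.57 and 0.835 to 1.91. Over the 6 group means MDM2 and MDM4, both inhibitors of p53, had a Pearson correlation of -0.634, which is a description over groups that share stages and pools.

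BBC3 encodes PUMA, a BH3-only protein that binds and blocks the anti-apoptotic BCL2 proteins. It lies on chromosome 19 from 47220822 to 47232766 on the minus strand. The hESC levels were 35.4, 41.9 and 32.1 CPM in LIS1+/-, against 19.5, 22.7 and 17.4 CPM in LIS1+/+. The Day 5 levels were 32.1, 22.3 and 28.97 CPM in LIS1+/-, against 24.1, 22.5 and 25.3 CPM in LIS1+/+. The Day 12 levels were 33.4, 35.3 and 27.4 CPM in LIS1+/-, against 29.7, 27.1 and 40.4 CPM in LIS1+/+. The genotypes were apart in hESC, with every LIS1+/- library higher, and overlapped in the organoids.

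The hESC means of BBC3 were 36.5 ± 5.01 CPM in LIS1+/- and 19.9 ± 2.68 CPM in LIS1+/+ (SD, n = 3 each). The log2 fold change of 0.88 ± 0.24 corresponds to 1.83-fold (95% confidence interval 1.30 to 2.58), with unadjusted p = 0.00113 and edgeR adjusted p = 0.106, so the difference is larger than the spread of the libraries but did not pass over all genes. At Day 5 and Day 12 the log2 fold changes were 0.21 ± 0.22 and -0.030 ± 0.23. The difference Day 12 minus hESC was -0.91 ± 0.33 (unadjusted p = 0.0109, edgeR adjusted p = 0.352). No stage step of BBC3 passed, and the one that came nearest was Day 5 to Day 12 in LIS1+/+ at 0.44 ± 0.23 (adjusted p = 0.154), where the stages did not overlap.

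PMAIP1 encodes NOXA, a BH3-only protein that acts mainly against the anti-apoptotic protein MCL1. The gene lies on chromosome 18 from 59899948 to 59904306 (plus strand). In hESC it had 102, 113 and 131 CPM in LIS1+/-, against 116, 126 and 142 CPM in LIS1+/+. At Day 5 it had 2.99, 5.48 and 0.878 CPM in LIS1+/-, against 4.58, 6.76 and 6.77 CPM in LIS1+/+. At Day 12 it had 8.04, 5.98 and 9.97 CPM in LIS1+/-, against 5.82, 4.404 and 6.81 CPM in LIS1+/+. Every hESC library lay far above every organoid library, and the genotypes overlapped at each stage.

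PMAIP1 fell from hESC to Day 5 in both genotypes, with a log2 fold change of -5.25 ± 0.33 in LIS1+/- (38.0-fold lower, edgeR adjusted p = 8.92e-13) and of -4.39 ± 0.29 in LIS1+/+ (20.9-fold lower, adjusted p = 2.51e-12). With Day 5 LIS1+/- replicates left out in turn, and in the other alternatives, the LIS1+/- step lay between -5.95 and -4.75. Over the same step the summed pluripotency markers stood at 424 to 548 CPM at Day 5 and 2866 to 3098 CPM in hESC in LIS1+/-, and at 792 to 847 CPM at Day 5 and 3680 to 4033 CPM in hESC in LIS1+/+. All 6 of these markers had counts in both hESC groups and NANOG was at 0 in Day 5 LIS1+/-. LIN28A made up most of the Day 5 sums, with means of 399 CPM in LIS1+/- and 634 CPM in LIS1+/+, and DPPA4 had 79.1 and 112 CPM. POU5F1 had 7.25 and 34.2 CPM at Day 5, TDGF1 2.29 and 16.0 CPM, and L1TD1 3.32 and 30.2 CPM. Mesenchyme markers had 27.1 to 31.3 CPM at Day 5 and 519 to 600 CPM in hESC in LIS1+/-, and 54.8 to 68.3 CPM at Day 5 and 451 to 486 CPM in hESC in LIS1+/+. Endoderm markers had 0.731 to 3.74 CPM at Day 5 and 57.7 to 90.9 CPM in hESC in LIS1+/-, and 1.35 to 13.1 CPM at Day 5 and 41.4 to 69.5 CPM in hESC in LIS1+/+. Of the mesenchyme list LUM and DCN were at 0 in LIS1+/- hESC and LUM in LIS1+/+ hESC, and of the endoderm list SOX17 and TTR were at 0 in both hESC groups. At Day 5, SOX17, FOXA2, TTR and DCN were at 0 in LIS1+/-, and TTR, LUM and DCN in LIS1+/+. In bulk samples fewer cells of a type and less RNA per cell cannot be told apart, and the part of these markers in the PMAIP1 change, or in those of MDM2, MDM4 and SESN1 over the same step, was not tested.

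At Day 5 the PMAIP1 level in LIS1+/- was 0.498 of that in LIS1+/+ (95% confidence interval 0.289 to 0.857), a log2 fold change of -1.01 ± 0.38 with unadjusted p = 0.0138 and edgeR adjusted p = 0.252. Without Day 5 LIS1+/- replicate 2, the library with the GC trend and with the highest PMAIP1 level of its group, it was -1.70 and passed (adjusted p = 0.0388), and without replicate 3, the library with 3 counts, it was -0.51 (adjusted p = 0.631). That group held 8, 15 and 3 counts of the gene, against 19, 30 and 30 in LIS1+/+. Marker sums were apart between the same groups. Pluripotency markers had 424 to 548 CPM in LIS1+/- and 792 to 847 CPM in LIS1+/+, mesenchyme markers 27.1 to 31.3 CPM in LIS1+/-, with DCN at 0, and 54.8 to 68.3 CPM in LIS1+/+, with LUM and DCN at 0. COL1A2 made up most of the mesenchyme difference, with means of 17.5 CPM in LIS1+/- and 50.1 CPM in LIS1+/+. COL1A1 (4.16 and 4.27 CPM), PDGFRB (4.31 and 4.96 CPM) and TWIST1 (1.77 and 2.38 CPM) differed little. COL3A1 (1.43 and 0.83 CPM) and LUM (0.49 and 0 CPM) went the other way, higher in LIS1+/-. Neural crest markers had 54.2 to 81.9 CPM in LIS1+/- and 98.0 to 114 CPM in LIS1+/+, with TFAP2B at 0, and neuron markers 291 to 405 CPM in LIS1+/- and 256 to 283 CPM in LIS1+/+, with NEUROD1 at 0. TUBB3 made up most of the neuron sum, with means of 335 CPM in LIS1+/- and 237 CPM in LIS1+/+, and DCX had 19.2 and 13.8 CPM. The neuron markers STMN2 (1.48 and 8.93 CPM) and ELAVL3 (3.73 and 6.96 CPM) went the other way, lower in LIS1+/-. The part of all these markers in the Day 5 values of PMAIP1 and the other members was not tested.

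PMAIP1 then rose from Day 5 to Day 12 in LIS1+/- by 1.40 ± 0.39 on the log2 scale (2.65-fold, edgeR adjusted p = 0.0126), while LIS1+/+ gave -0.074 ± 0.38 (adjusted p = 0.907). The difference between these steps was 1.48 ± 0.54 and did not pass (unadjusted p = 0.011, edgeR adjusted p = 0.249). The LIS1+/- call was lost without Day 5 LIS1+/- replicate 3, the library with 3 counts (0.90, adjusted p = 0.0979), without Day 12 LIS1+/- replicate 3 (1.16, adjusted p = 0.0887) and in a fit of only the libraries compared (1.39, adjusted p = 0.094).

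BAX, which p53 activates in many cells and which opens the outer mitochondrial membrane in apoptosis, lies on chromosome 19 from 48954815 to 48961798 on the plus strand. hESC had 51.1, 51.4 and 61.3 CPM in LIS1+/-, against 72.4, 47.4 and 38.5 CPM in LIS1+/+. Day 5 organoids had 51.6, 51.9 and 72.3 CPM in LIS1+/-, against 57.4, 52.3 and 60.9 CPM in LIS1+/+. Day 12 organoids had 31.5, 33.6 and 45.6 CPM in LIS1+/-, against 20.7, 28.3 and 30.7 CPM in LIS1+/+. The Day 12 libraries lay below the Day 5 libraries in both genotypes, and at Day 12 every LIS1+/- library was above every LIS1+/+ library.

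BAX fell from Day 5 to Day 12 in both genotypes, with a log2 fold change of -0.66 ± 0.23 in LIS1+/- (1.58-fold lower, edgeR adjusted p = 0.0453) and of -1.09 ± 0.24 in LIS1+/+ (2.13-fold lower, adjusted p = 0.00144). The LIS1+/- call was lost with DESeq2 size factors (-0.64, adjusted p = 0.0513), in a fit of only the libraries compared (-0.65, adjusted p = 0.0647), and without Day 5 replicate 3 or Day 12 replicate 1 or 2 of LIS1+/- (-0.48, -0.57 and -0.58, with adjusted p = 0.214, 0.154 and 0.162). The Day 12 genotype effect was 0.48 ± 0.24 (adjusted p = 0.416), and the effects in hESC and at Day 5 were 0.042 ± 0.23 and 0.047 ± 0.22. Marker sums also differed at Day 12, where mesenchyme markers had 96.5 to 135 CPM in LIS1+/- and 149 to 941 CPM in LIS1+/+ over 7 genes, all with counts in both groups. Neural crest markers had 36.5 to 51.5 CPM in LIS1+/-, with FOXD3 at 0, and 113 to 377 CPM in LIS1+/+, and endoderm markers 7.98 to 20.4 CPM in LIS1+/-, with SOX17 and FOXA2 at 0, and 20.8 to 456 CPM in LIS1+/+. Their part in the Day 12 values of BAX and the other members was not tested.

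**Figure D2:**
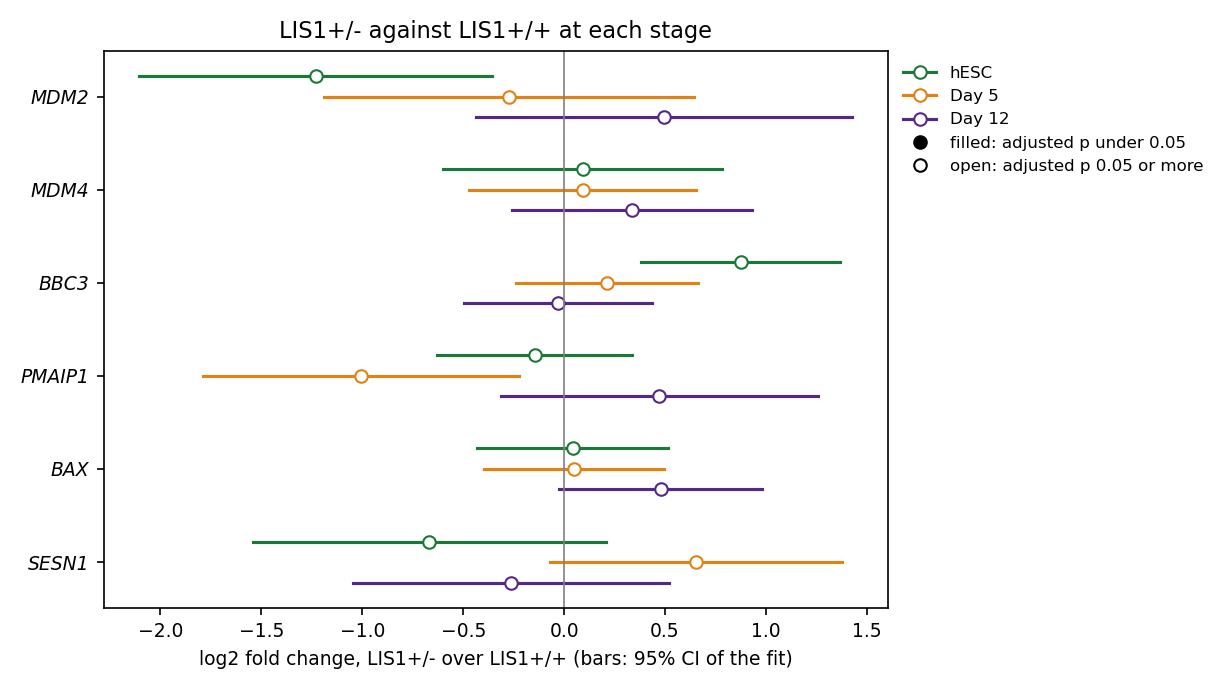
Log2 fold change of LIS1+/- over LIS1+/+ for the 6 tested genes at each stage, with the 95% confidence interval of the edgeR fit. All symbols are open because none passed the adjusted p threshold of 0.05; MDM2 and BBC3 in hESC and PMAIP1 at Day 5 have intervals that leave out 0.

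SESN1 encodes sestrin 1, which restrains mTORC1 signalling and helps limit oxidative damage. It lies on chromosome 6 from 108986437 to 109094819 on the minus strand. The hESC levels were 3.16, 6.31 and 5.77 CPM in LIS1+/-, against 7.14, 9.35 and 8.69 CPM in LIS1+/+. The Day 5 levels were 10.5, 14.3 and 10.2 CPM in LIS1+/-, against 7.24, 6.76 and 8.12 CPM in LIS1+/+. The Day 12 levels were 4.33, 9.39 and 11.7 CPM in LIS1+/-, against 11.6, 14.5 and 6.33 CPM in LIS1+/+. The LIS1+/- libraries were all below the LIS1+/+ ones in hESC and all above them at Day 5, and the genotypes overlapped at Day 12.

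None of the SESN1 genotype effects passed. They were -0.67 ± 0.43 in hESC, 0.65 ± 0.35 at Day 5 and -0.26 ± 0.38 at Day 12, with edgeR adjusted p = 0.581, 0.512 and 0.822. The difference Day 5 minus hESC was 1.32 ± 0.55 (unadjusted p = 0.0241, edgeR adjusted p = 0.329). SESN1 rose from hESC to Day 5 in LIS1+/- by 1.15 ± 0.39 on the log2 scale (2.21-fold, adjusted p = 0.0199), while LIS1+/+ gave -0.18 ± 0.39 (adjusted p = 0.742). The LIS1+/- call was lost without hESC LIS1+/- replicate 1, which held 5 counts (0.94, adjusted p = 0.0812), and without Day 5 LIS1+/- replicate 2 (0.98, adjusted p = 0.0718). The other sestrins went separate ways over this step in LIS1+/+. SESN3 stood at 18.7 CPM at Day 5 and 1.88 CPM in hESC (log2 fold change 3.26 ± 0.44, adjusted p = 1.19e-06), and SESN2 at 56.3 CPM at Day 5 and 134 CPM in hESC (-1.25 ± 0.20, adjusted p = 1.13e-05).

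**Figure D3:**
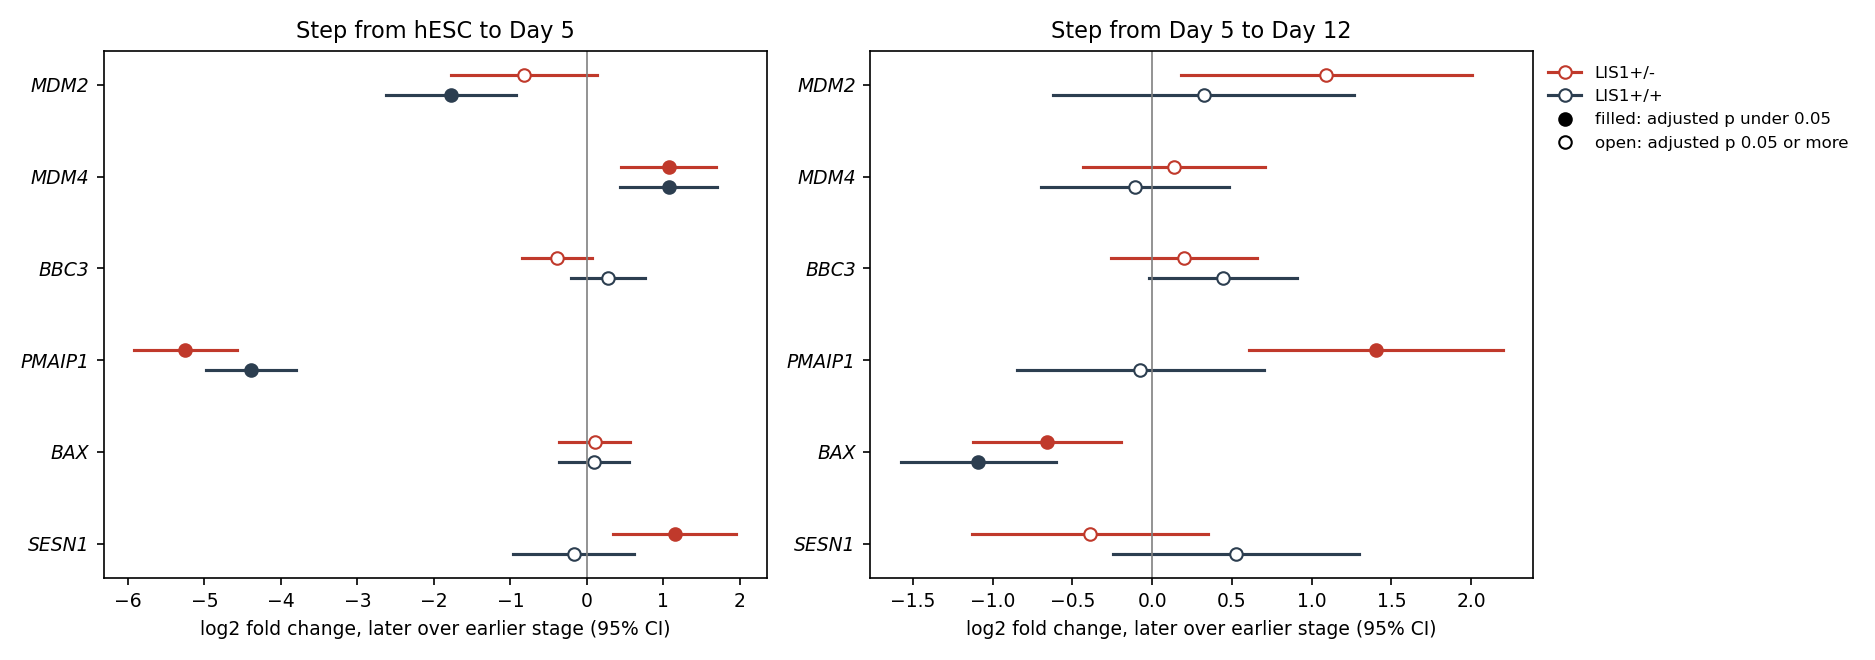
Log2 fold change of the later over the earlier stage for the 6 tested genes, with the 95% confidence interval, in LIS1+/- (red) and LIS1+/+ (dark blue); filled symbols passed the adjusted p threshold of 0.05. PMAIP1 lies at -5.25 and -4.39 from hESC to Day 5, and BAX is the gene that passed in both genotypes from Day 5 to Day 12.

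The 3 members below the filter were near the detection limit, so their pooled counts are given with exact 95% intervals that cover counting error only. GDF15, a secreted stress factor of the TGF-beta family on chromosome 19, had 3, 6 and 7 counts in LIS1+/- hESC, against 0, 2 and 1 in LIS1+/+ hESC. The pooled 16 and 3 counts gave a ratio of 4.22 (1.21 to 22.6) after scaling to library size. Scaled to library size, the LIS1+/- hESC libraries all lay above the LIS1+/+ ones. At Day 5 GDF15 had 0, 1 and 0 counts in LIS1+/-, against 3, 1 and 2 in LIS1+/+. At Day 12 it had 2, 5 and 3 counts in LIS1+/-, against 9, 1 and 6 in LIS1+/+, a ratio of 0.376 (0.152 to 0.880) between groups that overlapped. No direction held over the stages.

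FAS, the death receptor bound by the FAS ligand, lies on chromosome 10. It had 1, 2 and 6 counts in LIS1+/- hESC, against 6, 0 and 0 in LIS1+/+ hESC, and at most 1 count in any Day 5 library. Day 12 organoids had 0, 2 and 1 counts in LIS1+/-, against 4, 1 and 3 in LIS1+/+. The Day 12 ratio was 0.225 (0.0385 to 0.939), and scaled to library size the genotypes did not overlap there. The Day 12 over Day 5 ratio in LIS1+/+ was 10.03 (2.001 to 96.9), from 8 counts at Day 12 and 2 at Day 5.

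ZMAT3, an RNA-binding zinc finger protein on chromosome 3, had 0, 0 and 2 counts in LIS1+/- hESC, against 0 in all 3 LIS1+/+ hESC libraries, which allows up to 0.576 CPM. At Day 5 it had 0, 1 and 0 counts in LIS1+/-, against 10, 0 and 3 in LIS1+/+. The single library with 10 counts holds most of the Day 5 LIS1+/+ total, and the genotypes overlapped. The Day 5 ratio, from 1 count in LIS1+/- and 13 in LIS1+/+, was 0.113 (0.00267 to 0.755). The Day 12 levels were 0, 1 and 3 counts in LIS1+/-, against 0, 1 and 3 in LIS1+/+. Differences between genotypes were not detectable at this depth for ZMAT3 in hESC and at Day 12.

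**Figure D4:**
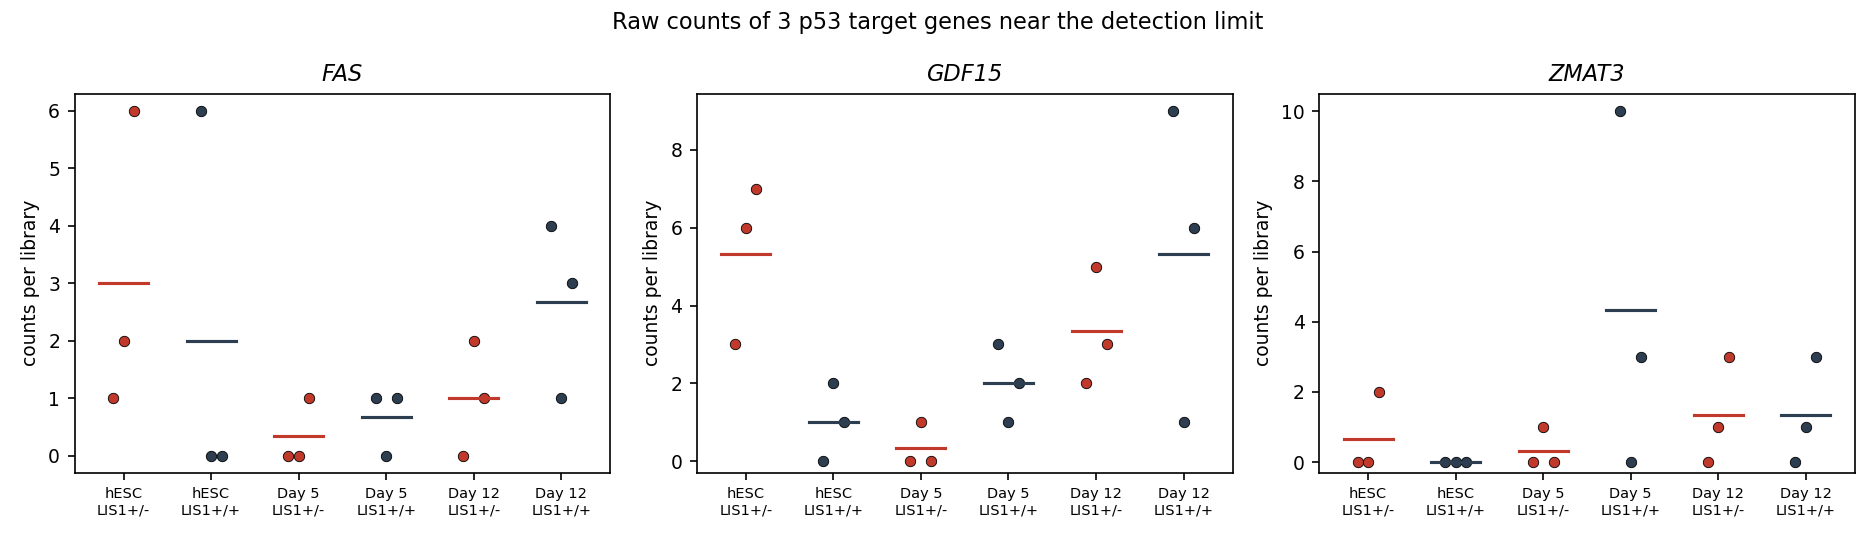
Raw counts per library of the 3 genes that did not pass the filter, with LIS1+/- in red and LIS1+/+ in dark blue; points are libraries and bars group means. No library holds more than 10 counts of any of them, and the 10 counts of ZMAT3 come from Day 5 LIS1+/+ replicate 1.

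Other genes of the pathway give the setting of these values. Of 59 further p53 targets with a row, 42 were tested, and between genotypes 1 was called in hESC, 2 at Day 5 and 1 at Day 12. Over all tested genes the shares called were 0.491%, 1.95% and 1.4% at these stages. The median log2 fold change of the 42 was 0.12, 0.05 and -0.06 at the 3 stages, beside 0.03, 0.01 and -0.01 for all tested genes. The called gene in hESC, at Day 12 and, with 1 other, at Day 5 was TNFRSF10B, which encodes a death receptor for TRAIL. It averaged 29.2 ± 3.24 CPM in LIS1+/- and 63.2 ± 8.001 CPM in LIS1+/+ in hESC, 30.4 ± 7.02 and 53.1 ± 3.72 CPM in LIS1+/- and LIS1+/+ at Day 5, and 43.0 ± 10.7 and 84.2 ± 8.58 CPM in LIS1+/- and LIS1+/+ at Day 12 (SD, n = 3 each). The 2 genotypes did not overlap at any stage, with LIS1+/- lower each time.

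The log2 fold change of TNFRSF10B was -1.13 ± 0.22, -0.81 ± 0.21 and -0.99 ± 0.21 at hESC, Day 5 and Day 12 (edgeR adjusted p = 0.0107, 0.0365 and 0.0101). In hESC the call was lost without LIS1+/+ replicate 1 (-1.01) or LIS1+/- replicate 2 or 3 (-1.10 and -1.06). At Day 5 it was lost without any of the LIS1+/+ replicates or LIS1+/- replicate 1 or 3 (-0.85 to -0.68), and at Day 12 without LIS1+/- replicate 2 or 3 (-0.99 and -0.81). It was also lost in fits of only the libraries compared at Day 5 and Day 12 (adjusted p = 0.0835 and 0.0714). The direction was the same in all of these fits. The other target called at Day 5 was PLK2, a polo-like kinase, with 10.4 ± 2.78 CPM in LIS1+/- and 2.12 ± 1.58 CPM in LIS1+/+ (log2 fold change 2.25 ± 0.40, adjusted p = 0.0015). PLK2 averaged 27.2 ± 4.47 CPM in LIS1+/- and 13.7 ± 0.885 CPM in LIS1+/+ hESC (1.00 ± 0.34, adjusted p = 0.229), and at Day 12 the sign was opposite, with 5.14 ± 0.828 CPM in LIS1+/- and 10.6 ± 1.74 CPM in LIS1+/+ (-1.01 ± 0.39, adjusted p = 0.257). Its genotype effect differed between the organoid stages, Day 12 minus Day 5, by -3.25 ± 0.56 on the log2 scale (edgeR adjusted p = 0.00249). For Day 12 minus hESC 1 further target was called, GADD45A, a DNA damage inducible gene, at -1.74 ± 0.39 (adjusted p = 0.0432).

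Of 27 core genes and regulators of p53 with a row, MDM2 and MDM4 included, 24 were tested and 1 was called at each stage. Over all tested genes the shares called were 0.491%, 1.95% and 1.4% at hESC, Day 5 and Day 12. The called regulator was CDKN2A each time, higher in LIS1+/-. The locus encodes the cell cycle inhibitor p16 and, from another reading frame, ARF, which binds MDM2, and tags at the shared 3' end do not tell their transcripts apart. CDKN2A averaged 237 ± 5.51 CPM in LIS1+/- and 74.0 ± 7.42 CPM in LIS1+/+ hESC (log2 fold change 1.68 ± 0.23, edgeR adjusted p = 0.000579). It averaged 36.2 ± 17.6 and 6.23 ± 1.53 CPM in LIS1+/- and LIS1+/+ at Day 5 (2.53 ± 0.28, adjusted p = 2.15e-06) and 16.5 ± 3.04 and 1.01 ± 0.46 CPM at Day 12 (4.06 ± 0.50, adjusted p = 4.14e-05). The groups did not overlap at any stage, and the call held in every alternative.

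Of 29 BCL2 family and death pathway genes with a row, which include BAX, BBC3, PMAIP1 and FAS, 24 were tested. At hESC, Day 5 and Day 12, where 0.491%, 1.95% and 1.4% of all tested genes were called, edgeR called none of the 24 between genotypes. From hESC to Day 5, 4 rose and 9 fell in LIS1+/-, and 2 rose and 9 fell in LIS1+/+, where 43.7% and 44.6% of all tested genes were called. Their median log2 fold change was -0.27 in LIS1+/- and 0.05 in LIS1+/+, beside 0.06 for all tested genes in both. The genes named next are examples from LIS1+/+. BOK, a relative of BAX, had 25.4 CPM at Day 5 and 201 CPM in hESC (-2.99 ± 0.29, adjusted p = 2.00e-08), and BMF, another BH3-only gene, had 78.6 CPM at Day 5 and 9.55 CPM in hESC (3.03 ± 0.32, adjusted p = 2.86e-08). Over the second step in LIS1+/+, BAK1, which acts beside BAX, had 28.7 CPM at Day 12 and 57.3 CPM at Day 5 (-0.99 ± 0.28, adjusted p = 0.0116), and XIAP, a caspase inhibitor, had 138 CPM at Day 12 and 67.9 CPM at Day 5 (1.01 ± 0.20, adjusted p = 0.000595).

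The further p53 targets moved in both directions between stages. From hESC to Day 5, 10 of the 42 tested were called higher and 13 lower in each genotype. Over all tested genes 43.7% and 44.6% were called in this step in LIS1+/- and LIS1+/+. From Day 5 to Day 12, 3 of the 42 were called higher and 3 lower in LIS1+/-, and 9 higher and 4 lower in LIS1+/+. The shares over all tested genes were 16.5% and 24.5% there. The median log2 fold change of the 42 targets was 0.27 and 0.16 over the first step in LIS1+/- and LIS1+/+, beside 0.06 for all tested genes in both. Over the second step it was 0.04 and 0.26 in LIS1+/- and LIS1+/+, beside -0.01 and 0.02. In LIS1+/+, CD82, a tetraspanin, had 160 CPM at Day 5 and 2.66 CPM in hESC, and AEN, an apoptosis-enhancing nuclease, had 124 CPM at Day 5 and 332 CPM in hESC (log2 fold changes 5.96 and -1.42). AEN was lower again at Day 12, at 43.6 CPM (-1.51 against Day 5), while DDB2, a DNA damage sensor, had 33.8 CPM at Day 12 and 14.3 CPM at Day 5 (1.24).

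**Figure D5:**
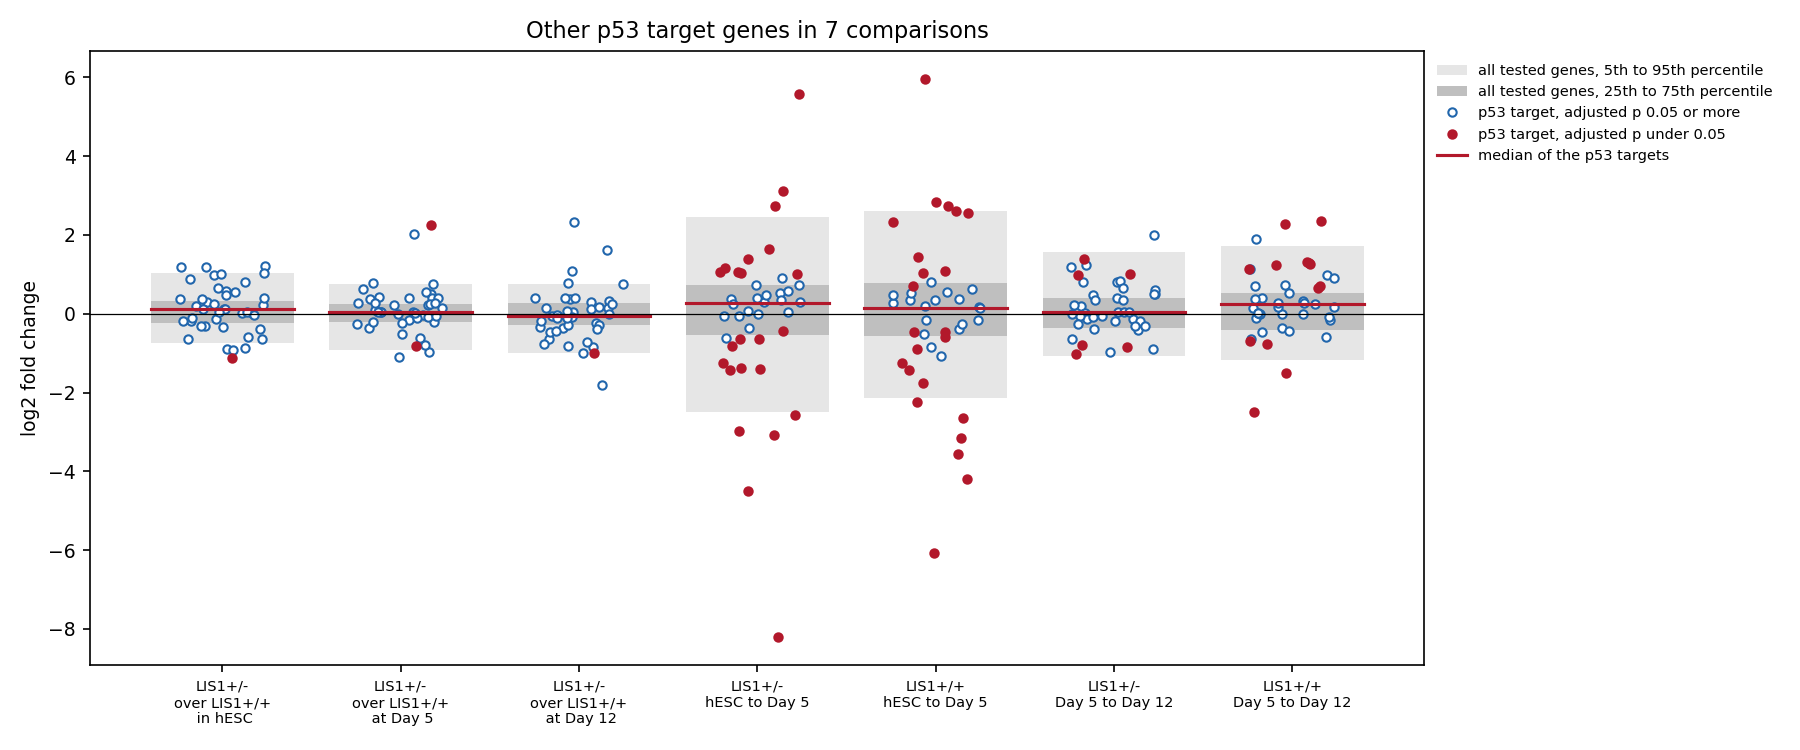
Log2 fold changes of the 42 tested genes of the further p53 target list in 7 comparisons, with filled symbols past the adjusted p threshold of 0.05, red bars at their median and grey boxes for all 12215 tested genes. In the 3 genotype comparisons 1, 2 and 1 genes are filled, and in both hESC to Day 5 steps 23 are, 10 above and 13 below 0. Over all tested genes 0.491%, 1.95% and 1.4% passed in the genotype comparisons, and 43.7% and 44.6% in those steps in LIS1+/- and LIS1+/+.

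PMAIP1 is also known as a target of ATF4 and CHOP, the factors of the integrated stress response, and their targets were counted as a list. Whether they had a part in the PMAIP1 values was not tested. From hESC to Day 5, 17 of the 20 tested genes of this list were called lower and 1 higher in LIS1+/-. Over all tested genes 21.4% were called lower and 22.4% higher there. In LIS1+/+, 15 were called lower and 2 higher, where the shares over all tested genes were 21.7% and 22.9%. The median log2 fold changes of the list were -1.59 and -1.48 in LIS1+/- and LIS1+/+, beside 0.06 for all tested genes in both. Over the next step in LIS1+/-, where PMAIP1 rose, 3 were called higher and 4 lower, with a median of -0.02 beside -0.01, and in LIS1+/+ 7 higher and 5 lower, with a median of 0.18 beside 0.02. Over all tested genes 16.5% and 24.5% were called in that step in LIS1+/- and LIS1+/+. SLC7A5, an amino acid transporter, had 78.9 CPM at Day 5 and 796 CPM in LIS1+/+ hESC, and ASNS, asparagine synthetase, had 56.4 CPM at Day 5 and 355 CPM in LIS1+/+ hESC (-3.33 ± 0.22 and -2.65 ± 0.21, edgeR adjusted p = 3.03e-12 and 1.17e-10). Between the genotypes 3 genes of the list were called lower in LIS1+/- at Day 12, where 1.06% of all tested genes were. DDIT3, which encodes CHOP, averaged 28.1 ± 2.84 CPM in LIS1+/- and 58.9 ± 15.4 CPM in LIS1+/+ (-1.07 ± 0.23, adjusted p = 0.0124). TRIB3, a pseudokinase induced by CHOP, averaged 19.7 ± 3.58 CPM in LIS1+/- and 50.8 ± 3.29 CPM in LIS1+/+ (-1.37 ± 0.27, adjusted p = 0.00543), and DDIT4, an inhibitor of mTORC1, was also lower there (-0.76 ± 0.19, adjusted p = 0.0375) and at Day 5 (-1.06 ± 0.20, adjusted p = 0.00293). The Day 12 log2 fold change of PMAIP1 between the genotypes, 0.47 ± 0.38, had the opposite sign and did not pass (adjusted p = 0.639). The list was not lower in LIS1+/- hESC, where none of its genes was called, beside 0.491% of all tested genes. Its median log2 fold change between genotypes was 0.33 in hESC, -0.09 at Day 5 and -0.32 at Day 12, beside 0.03, 0.01 and -0.01. DDIT4 averaged 152 CPM in LIS1+/- and 104 CPM in LIS1+/+ hESC, DDIT3 31.7 and 23.4 CPM, and TRIB3 80.5 and 67.1 CPM.

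Over the means of the 6 groups the genes most like each member, among 10410 genes with a mean of at least 5 CPM, were found by Pearson correlation of log2 CPM, as a description over groups that share stage, pool and library depth. PMAIP1 was most like GSTO1, USP32 and USP31 (r = 0.999, 0.999 and 0.998), and GCFC2 and PBX2 were among those most like MDM4 (0.997 and 0.996). BAX was most like KRI1, CLN6 and DHX34 (0.996, 0.996 and 0.992). BBC3 was most like MOB3C, RCAN2 and MBTPS1 (0.993, 0.975 and 0.968), MDM2 most like SLC25A14, COMMD7 and KIAA1467 (0.989, 0.980 and 0.967), and SESN1 most like UBA2, CBX3 and NDUFC2 (0.981, 0.978 and 0.973). None of the members was among the genes most like another, since members were left out of the search. Between members r ran from -0.945 for MDM4 and PMAIP1 to 0.771 for MDM2 and PMAIP1.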

How the data were processed

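Bulk MARS-seq libraries of the WIBR3 line were deposited as 1 file of raw counts per gene symbol for each of 18 libraries, whole numbers with no normalization by the authors, with 26485 genes and, at the end, 5 summary rows as htseq-count writes them. Per the submitters' processing notes cutadapt, STAR and DESeq2 were used and the builds GRCh37 and hg38 are named, without versions or roles. Strand use and collapsing of molecular identifiers are not given in the sources used here.

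Genes were filtered with filterByExpr (12215 kept), scaled with TMM and tested with the two-sided quasi-likelihood F-test of edgeR 4.0.16 (R 4.3.3, robust) with the 6 groups as the only terms and all 18 libraries fitted together (12 residual degrees of freedom). Adjusted p is Benjamini-Hochberg over all tested genes, called under 0.05. CPM use TMM library sizes. Pooled counts have exact 95% intervals, and a limit at 0 uses 3 counts over the group.

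Alternatives were DESeq2 size factors, no filter, DESeq2 1.42.0, a fit on just the groups compared, a block for the replicate number, each library left out, and the 3 libraries with a GC trend left out together. Slopes compare a library with the others of its stage over 11661 genes with a GC value from GENCODE release 29, whose GRCh38 positions need not be the authors' build. Scripts were tested on simulated data. The 9 members, the gene lists and the alternatives were chosen with earlier results of these data known. The named genes are the members, up to 6 further targets and up to 3 of each other list by smallest adjusted p in the genotype comparisons and LIS1+/+ steps, and the 3 genes most like each member. Not every gene the rule took is printed. GADD45A, from the Day 12 minus hESC difference, PAFAH1B1, the carboxypeptidase M gene and the marker genes are named outside this rule. The replicate numbers were not taken to pair the libraries (45 pairs of libraries with the same number, r of -0.491 to 0.577, 11 over 0.1). Pairs with different numbers were not compared, so these values do not decide whether the numbers pair the libraries. No 2 libraries of the same group agreed within sampling noise, and libraries of different groups were not compared in this way. Figures used Matplotlib 3.10.9.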

Additional observations from a re-analysis of the deposited data

How the results depend on the processing

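The number of members called was 0 in each genotype comparison in the main analysis and in each alternative, with 1 exception. At Day 5 it was 1 (PMAIP1) without the 3 libraries with a GC trend, and 0 to 1 with single libraries left out. In LIS1+/- from Day 5 to Day 12 it was 2, against 1 with DESeq2 size factors, 0 in a fit of only the libraries compared, and 0 to 3 with single libraries left out. From hESC to Day 5 in LIS1+/- it was 3, and 2 to 3 with single libraries left out. The replicate number as a block changed no member's call, with 3 and 3 called from hESC to Day 5 in LIS1+/- and LIS1+/+ and 2 and 1 from Day 5 to Day 12.

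Without the 3 libraries with a GC trend some uncalled values near 0 changed sign: BAX was -0.14 between the genotypes in hESC and -0.088 in LIS1+/+ from hESC to Day 5, MDM4 -0.075 between the genotypes in hESC and, from Day 5 to Day 12, -0.032 in LIS1+/- and 0.15 in LIS1+/+, PMAIP1 0.068 in LIS1+/+ from Day 5 to Day 12, and SESN1 0.020 between the genotypes at Day 12. The cause was not tested. With single libraries left out, signs also varied, with ranges for BAX of -0.14 to 0.35 in hESC and -0.14 to 0.13 at Day 5 between the genotypes, and of -0.081 to 0.20 in LIS1+/- and -0.085 to 0.41 in LIS1+/+ from hESC to Day 5. The genotype ranges were -0.14 to 0.17 for BBC3 at Day 12, -0.85 to 0.060 for MDM2 at Day 5, -0.12 to 0.38 for MDM4 in hESC, -0.087 to 0.26 for MDM4 at Day 5 and -0.55 to 0.016 for SESN1 at Day 12. Over the Day 5 to Day 12 step they were -0.033 to 0.31 in LIS1+/- and -0.40 to 0.15 in LIS1+/+ for MDM4, and -0.25 to 0.067 in LIS1+/+ for PMAIP1. SESN1 from hESC to Day 5 in LIS1+/- gave 0.98 (edgeR adjusted p = 0.0685) without the 3 libraries.

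Over all genes the genotype calls numbered 60 in hESC, against 206 with no filter, 131 with DESeq2, 153 with only the libraries compared and 21 to 41 with a library left out. At Day 5 they numbered 238, against 412 with no filter and 125 to 186 with a library left out. At Day 12 they numbered 171, against 483, 294 and 41 under the same 3 alternatives as in hESC, 381 without the 3 libraries with a GC trend and 57 to 332 with a library left out. Over the LIS1+/- step from Day 5 to Day 12, 2020 genes were called, and 1317 to 1921 with a library left out. For the difference Day 5 minus hESC the counts were 70, against 281, 140 and 117 (31 to 79 with a library left out), for Day 12 minus Day 5 129, against 363, 205 and 77 (59 to 170), and for Day 12 minus hESC 46, against 172 with no filter, 120 with DESeq2, 158 without the 3 libraries and 11 to 138 with a library left out.

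Depth limits FAS, GDF15 and ZMAT3 (at most 10 counts in a library) and the organoid values of PMAIP1 and MDM2 (3 to 35 counts).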
